A study of Mus musculus with 4 samples.

Results

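The SOCS genes and their relatives were followed in splenic regulatory T (Treg) cells with and without the histone methyltransferase Setd2. The genes were Cish, Socs1 to Socs7, Pias1 and Pias3, found by symbol, and they made up 10 of the 24087 genes in the table. All 10 were in the file and all 10 passed the filter on low values, which kept 11399 genes with at least 1 FPKM in at least 2 libraries. FPKM is the number of sequenced fragments scaled by gene length and library total, so that levels of different genes can be set side by side.

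Treg cells were sorted as CD3+CD4+YFP+ from spleens at steady state, all on a C57BL/6 background. KO cells came from Foxp3Cre-YFPSetd2f/f mice and CTRL cells from littermates of the genotype Foxp3Cre-YFPSetd2f/+, with 2 libraries a genotype and cells of 2 mice pooled in each library. Both genotypes carry the Cre-YFP fusion at Foxp3, which limits deletion to cells that express Foxp3, and CTRL mice carry a floxed Setd2 allele themselves. The labels give no age for these mice. The methods describe age-matched young adult littermates for the in vivo work in general, with no age tied to these libraries. In pooled RNA of this kind, fewer cells with a transcript and less transcript per cell cannot be told apart.

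Cytokines such as IL-2 and IL-6 act through receptors that carry JAK kinases, which phosphorylate STAT transcription factors. STAT factors switch on several SOCS genes, and the SOCS proteins then bind phosphorylated receptors or kinases through an SH2 domain and recruit a ubiquitin ligase through their SOCS box, which closes a feedback loop. PIAS proteins are SUMO ligases that bind STAT factors. In Treg cells, Cish is a well known target of IL-2 and STAT5, and SOCS1 is known to protect Treg identity from inflammatory cytokines.

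The libraries held at least 29986116 to 32684687 reads, recovered from the whole-number ratios of FPKM values, and the members were covered by at least 211 reads in each library. These counts are lower bounds, and the smallest were those of Socs5, at 211 to 248 reads. Socs7 had lower FPKM than Socs5 but larger bounds, so the bounds need not rank the members by coverage. The part of counting error in the spread between the 2 libraries per genotype was not tested. The targeted gene Setd2 had 23.4 and 25.3 FPKM in CTRL libraries, against 21.3 and 19.5 FPKM in KO, with both KO libraries below both CTRL libraries. Its log2 fold change of -0.24 (standard error 0.076) did not pass the threshold, an adjusted p under 0.05 over all genes tested by limma (adjusted p = 0.0970). The values cover the whole gene, so reads of the deleted exons were not separated from the rest. All 8 Treg markers were above 1 FPKM, with Foxp3 ranging from 120.6 to 139.8 FPKM for CTRL and from 111.6 to 119.2 FPKM for KO. Of the 8, Nrp1 passed the threshold as higher in KO and 0 passed as lower, against 5.1% higher and 4.65% lower over all genes tested. Nrp1 was at 58.6 and 60.5 FPKM in CTRL libraries 1 and 2 and at 76.4 and 83.1 FPKM in KO libraries 1 and 2. Both KO libraries lay above both CTRL libraries for Nrp1, Ikzf2 and Lrrc32, and below them for Foxp3, Il2ra and Ikzf4. Over all genes tested, 29% lay above and 35.5% below in this way. For Ctla4 and Tnfrsf18 the groups overlapped. The 8 markers summed to 1258 to 1350 FPKM in CTRL and 1332 to 1414 in KO, with overlap. CTRL 1 had 19100 genes above 0 and the other libraries had 15913 to 16410.

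Marker lists of other cells were read as sums of FPKM. The 8 myeloid markers summed to 300.2 and 197.9 FPKM in CTRL libraries 1 and 2 and to 342.8 and 155.7 FPKM in KO libraries 1 and 2, so that both libraries numbered 1 were high and the groups overlapped. The 7 B cell markers summed to 22.0 to 26.4 FPKM in CTRL and 24.6 to 41.3 in KO, also with overlap. The 5 erythroid markers ranged from 2.21 to 20.1 FPKM, the 5 NK cell markers from 7.06 to 8.62 and the 2 CD8 T cell markers from 8.49 to 11.4, with overlapping groups in each. Of the 7 T cell markers, 6 were in the file. They summed to 1940 to 2027 FPKM in CTRL and 1856 to 1937 in KO, here without overlap, the KO sums being lower. No marker was at 0 in every library, and none of those tested in the lists other than Treg passed the threshold. Their part in the results was not tested.

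Among the cytokine feedback inhibitors, Socs3 rose in KO Treg cells and was the only 1 of the 10 genes to pass the threshold. Socs4 was lower in both KO libraries and missed the threshold narrowly. The other 8 genes, including the IL-2 target Cish and the JAK inhibitor Socs1, did not pass. At an adjusted p under 0.05, 5.1% of all genes tested passed as higher in KO and 4.65% as lower, together 9.75%, so 1 of 10 lay near the background share. At an unadjusted p under 0.05, Socs3 was higher and Socs4 lower, 2 of 10 against 34.7% of all genes tested (16.3% higher and 18.4% lower). The groups did not overlap for 5 of the 10 genes, against 64.5% of all genes tested, with KO above CTRL for 2 (29% of all genes) and below for 3 (35.5%). The median log2 fold change of the 10 genes was -0.10, compared with -0.022 over all genes tested, and 7 of the 10 values were below 0.

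**Figure D1:**
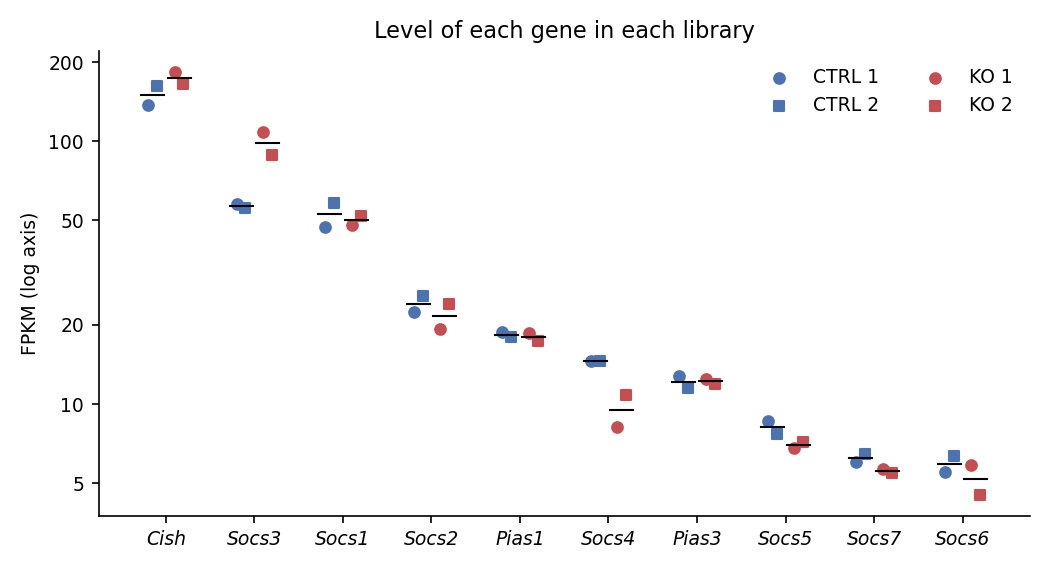
FPKM of each gene (log axis) in CTRL (blue) and KO (red) libraries, where circles are libraries numbered 1, squares are libraries numbered 2 and bars are group means (n = 2). Socs3 sits at 88.4 to 108.4 FPKM in KO above 55.7 to 57.9 FPKM in CTRL, and Socs4 at 8.15 to 10.8 FPKM in KO below 14.5 to 14.6 FPKM in CTRL.

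The levels of the family spanned a wide range. In CTRL, Cish was highest with a mean of 149.9 ± 18.1 FPKM (SD, n = 2), above 96.7% of all genes tested when averaged over the libraries. Socs3, at 56.8 ± 1.55 FPKM, and Socs1, at 52.6 ± 7.77 FPKM, followed with overlapping ranges. Socs2, Pias1, Socs4, Pias3 and Socs5 came next in that order without overlap between neighbours. Socs7, at 6.23 ± 0.32 FPKM, and Socs6, at 5.92 ± 0.60 FPKM, were lowest and overlapped. The cytokine-inducible genes Cish, Socs3, Socs1 and Socs2 were thus the abundant ones. In KO the order changed at 1 place, where Socs4 moved below Pias3, and the ranges of Socs3 and Socs1 no longer overlapped.

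SOCS3 binds the shared receptor chain gp130 and the JAK kinases and limits IL-6 signalling through STAT3. Socs3 (ENSMUSG00000053113, chromosome 11, 117966079 to 117970047, minus strand, GRCm38) was at 57.9 and 55.7 FPKM in CTRL libraries 1 and 2 and at 108.4 and 88.4 FPKM in KO libraries 1 and 2. Both KO libraries were well above both CTRL libraries, and KO 1 was the higher of the pair. The KO mean of 98.4 ± 14.1 FPKM was 1.73 times the CTRL mean of 56.8 ± 1.55 FPKM (SD, n = 2 each). The log2 fold change was 0.78 on the log2(FPKM + 1) scale (standard error 0.11, 95% interval 0.50 to 1.05, limma adjusted p = 0.0351). The replicates differed by at most 0.29 on this scale, less than the difference between genotypes. The myeloid marker sum was likewise highest in KO 1 but was lowest in KO 2, and its part in the Socs3 difference was not tested. The call ended when every gene above 0 was tested (adjusted p = 0.0861) and when any 1 of CTRL 1, CTRL 2, KO 1 or KO 2 was left out (adjusted p = 0.137, 0.140, 0.102 and 0.0888), although each of these fits kept a log2 fold change of at least 0.63.

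Socs4 was the member with the next largest difference. Its protein carries a long N-terminal region and has been tied to EGF receptor turnover more than to STAT signalling. Socs4 (ENSMUSG00000048379, chromosome 14, 47276931 to 47296102, plus strand) was at 14.6 and 14.5 FPKM in CTRL libraries 1 and 2 and at 8.15 and 10.8 FPKM in KO libraries 1 and 2. The CTRL libraries were nearly equal, and both KO libraries lay below them. The KO mean of 9.47 ± 1.86 FPKM was 0.651 times the CTRL mean of 14.5 ± 0.024 FPKM (SD, n = 2 each). The log2 fold change was -0.58 (standard error 0.13, 95% interval -0.92 to -0.24), with an adjusted p of 0.0553 by limma, just outside the threshold. Socs4 passed in 4 of the 11 alternative limma settings that used all libraries. When only genes averaging over 5 FPKM in KO or CTRL were tested, the adjusted p was 0.0428, and with robust eBayes 0.0446. With limma-voom on recovered reads it was 0.0312, and with the replicate number as a block 0.0240. In the other 7 settings Socs4 did not pass, with an adjusted p from 0.0508 (libraries scaled to the same sum) to 0.126 (every gene above 0 tested). It did not pass when any 1 library was left out (adjusted p from 0.0888 to 0.191).

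The upstream sequences of these genes are shown because STAT factors bind TTCNNNGAA, a palindrome that reads the same on both strands. RefSeq windows of 300 bases on GRCm38.p6, from 250 bases before to 50 bases after an annotated start, were at hand for 6 of the 10 genes and not for Socs2, Socs5, Socs6 and Socs7. The following lines give positions -200 to 20 for Socs3 and Socs4 and -10 to 20 for Cish, counted from the start of each window's transcript at 1, 5′ to 3′ on the gene's strand, with matches to TTCNNNGAA in capitals.
Socs3, chr11:117969347-117969566, minus strand: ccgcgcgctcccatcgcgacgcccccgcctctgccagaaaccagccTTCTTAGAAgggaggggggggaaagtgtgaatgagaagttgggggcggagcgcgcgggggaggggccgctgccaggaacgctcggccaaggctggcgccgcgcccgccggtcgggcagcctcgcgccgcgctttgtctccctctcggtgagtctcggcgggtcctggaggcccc
Socs4, chr14:47276720-47276939, plus strand: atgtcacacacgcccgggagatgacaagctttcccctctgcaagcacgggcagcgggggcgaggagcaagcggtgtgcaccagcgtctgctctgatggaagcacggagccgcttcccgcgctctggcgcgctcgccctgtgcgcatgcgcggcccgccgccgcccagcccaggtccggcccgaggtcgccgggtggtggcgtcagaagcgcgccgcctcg
Cish, chr9:107296649-107296678, plus strand: ccgcccagttTTCCTGGAAagTTCTTGGAA

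The Socs3 window held 1 match, at -154 to -146. Cish held 2, at 1 to 9 and at 12 to 20. The windows of Socs4, Socs1, Pias1 and Pias3 held no match, which says only that these letters are not in those windows. Of all 32851 windows in the RefSeq table, 8.30% held at least 1 match and 0.457% held at least 2. GC content was 73.3% in the Socs3 window, 70.7% in that of Socs4 and 53.3% in that of Cish, compared with a median of 52.7% over all windows. The Socs3 window belongs to a start 180 bases upstream of the protein-coding transcript in GENCODE, so the bases next to that second start lie outside it. The Cish stretch lies within the 5′ untranslated region (107296026 to 107297014) of a GENCODE transcript that starts further upstream. GENCODE also gives Cish protein-coding starts 51 and 253 bases downstream of this window's start, and the stretch lies upstream of both.

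**Figure D2:**
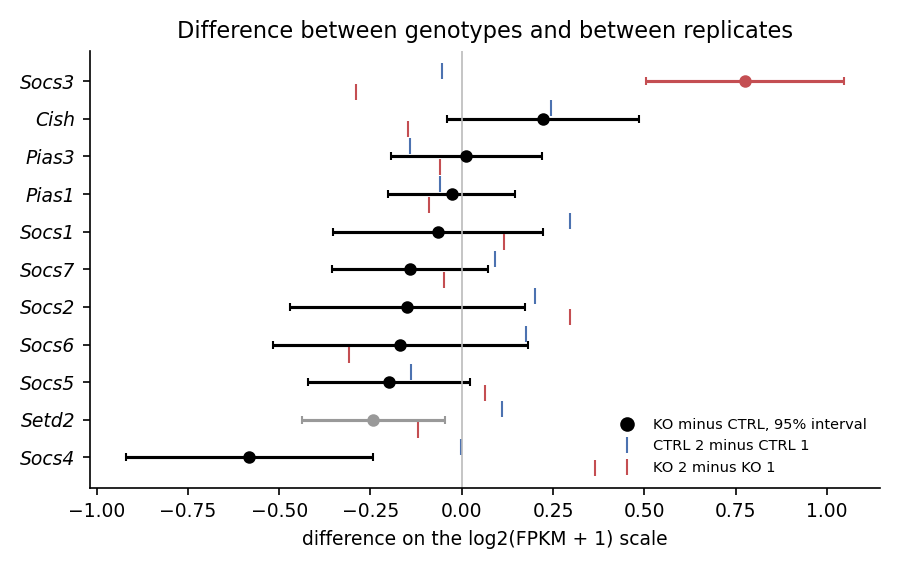
KO minus CTRL difference of each gene on the log2(FPKM + 1) scale, with 95% intervals from limma, beside the difference between the CTRL libraries (blue ticks) and between the KO libraries (red ticks), with Setd2 in grey. The intervals of Socs3 (0.50 to 1.05), Socs4 (-0.92 to -0.24) and Setd2 (-0.44 to -0.047) lie off 0, and only Socs3 passed the threshold after adjustment.

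The nearest relatives of Socs3 in the feedback loop did not pass. CISH, which binds IL-2 receptor beta and the T cell receptor pathway, gave the highest transcript level of the family. Cish (ENSMUSG00000032578, chromosome 9, 107296026 to 107302784, plus strand) was at 137.1 and 162.7 FPKM in CTRL libraries 1 and 2 and at 183.7 and 165.8 FPKM in KO libraries 1 and 2. Both KO libraries were above both CTRL libraries, but KO 2 lay close to CTRL 2, and the gap of 0.25 between the CTRL libraries on the log2 scale exceeded the log2 fold change of 0.22 (95% interval -0.040 to 0.49, limma adjusted p = 0.195). Cish shares exon sequence with Gm17040 and Gm17041 on the opposite strand, which are not in the table, and the use of strand in the counting is not given in the sources used here.

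SOCS1, the strongest JAK inhibitor of the family, is known to restrain interferon responses. Socs1 (chromosome 16, 10782240 to 10785536, minus strand) was at 47.2 and 58.1 FPKM in CTRL libraries 1 and 2 and at 48.0 and 52.1 FPKM in KO libraries 1 and 2. The KO libraries lay between the CTRL libraries, and the log2 fold change was -0.065 (95% interval -0.35 to 0.22, limma adjusted p = 0.721). Socs2, the close relative of Cish known for limiting growth hormone signals, was at 22.3 and 25.8 FPKM in CTRL libraries 1 and 2 and at 19.3 and 24.0 FPKM in KO libraries 1 and 2 (chromosome 10, 95385362 to 95417180). Its groups overlapped, and its log2 fold change was -0.15 (95% interval -0.47 to 0.17, limma adjusted p = 0.446). For Cish, Socs1 and Socs2 the intervals ran from -0.040 to 0.49, from -0.35 to 0.22 and from -0.47 to 0.17. They include 0 and leave room for changes within these ranges.

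The constitutive members Socs5, Socs6 and Socs7 were weakly expressed, and their log2 fold changes were all below 0. Socs5, whose protein resembles SOCS4, was at 8.60 and 7.72 FPKM in CTRL libraries 1 and 2 and at 6.80 and 7.16 FPKM in KO libraries 1 and 2 (log2 fold change -0.20, 95% interval -0.42 to 0.023, limma adjusted p = 0.177). Socs7 was at 6.01 and 6.46 FPKM in CTRL libraries 1 and 2 and at 5.66 and 5.44 FPKM in KO libraries 1 and 2 (log2 fold change -0.14, 95% interval -0.36 to 0.071, limma adjusted p = 0.284). In both genes the KO libraries lay below the CTRL libraries, an arrangement that 35.5% of all genes tested showed. Socs6, which can target the kinase Lck, was at 5.50 and 6.34 FPKM in CTRL libraries 1 and 2 and at 5.84 and 4.52 FPKM in KO libraries 1 and 2, with overlapping groups (log2 fold change -0.17, 95% interval -0.52 to 0.18, limma adjusted p = 0.430). Socs5 lies on chromosome 17 (87107679 to 87137839), Socs6 on chromosome 18 (88665224 to 88927481) and Socs7 on chromosome 11 (97362551 to 97398542).

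The PIAS genes gave the smallest differences of the set. Pias1, a SUMO ligase that restrains STAT-driven transcription, was at 18.8 and 18.0 FPKM in CTRL libraries 1 and 2 and at 18.6 and 17.4 FPKM in KO libraries 1 and 2 (chromosome 9, 62878368 to 62987924). Pias3, which limits STAT3, was at 12.8 and 11.5 FPKM in CTRL libraries 1 and 2 and at 12.5 and 11.9 FPKM in KO libraries 1 and 2 (chromosome 3, 96696384 to 96706070). Both pairs of groups overlapped. The log2 fold changes were -0.028 for Pias1 (95% interval -0.20 to 0.15, limma adjusted p = 0.804) and 0.012 for Pias3 (95% interval -0.19 to 0.22, limma adjusted p = 0.929). Either direction could be had by leaving out a library or by another setting, so no direction is given for them. Pias3 shares 4 exon bases with Nudt17 on the opposite strand.

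Since a ratio of genes within a library does not depend on its scaling, the make-up of the family was read next. The FPKM of Cish and Socs1 to Socs7 summed to 299.2 and 337.4 in CTRL libraries 1 and 2 and to 386.0 and 358.2 in KO libraries 1 and 2. Socs3 gave 19.4% and 16.5% of this sum in CTRL libraries 1 and 2 and 28.1% and 24.7% in KO libraries 1 and 2. Cish held 45.8% and 48.2% in CTRL and 47.6% and 46.3% in KO, so that its share overlapped between genotypes while that of Socs3 did not. The shares of Socs1, Socs2 and Socs4 to Socs7 were lower in both KO libraries than in both CTRL libraries. For Socs4 the share was 4.87% and 4.31% in CTRL libraries 1 and 2, against 2.11% and 3.01% in KO libraries 1 and 2. These shares add up to a fixed total within a library, and no test was made on them.

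**Figure D3:**
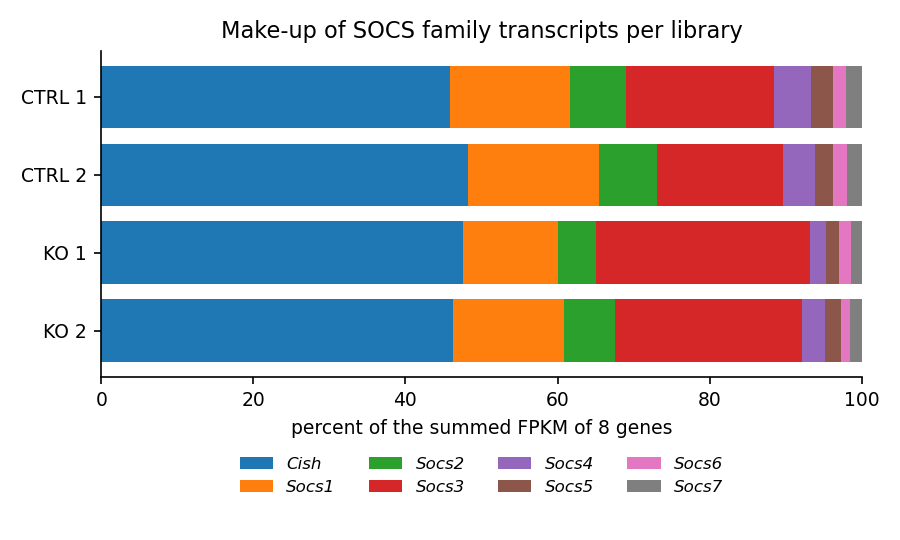
Percent of the summed FPKM of Cish and Socs1 to Socs7 taken by each gene, 1 bar per library. Socs3 takes 16.5% to 19.4% in CTRL and 24.7% to 28.1% in KO, while Cish takes 45.8% to 48.2% in every library.

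Ratios of single genes were read in the same way. The FPKM ratio of Socs3 to Socs1 was 1.23 and 0.958 in CTRL libraries 1 and 2, against 2.26 and 1.70 in KO libraries 1 and 2. Both genes were thus at like levels in CTRL and Socs3 was the higher in KO. The ratio of Socs3 to Socs4 was 3.98 and 3.83 in CTRL libraries 1 and 2, against 13.3 and 8.20 in KO libraries 1 and 2. Here the KO libraries differed from each other by more than the CTRL libraries, KO 1 being highest for Socs3 and lowest for Socs4. Socs3 and Socs4 were the members with the largest rise and the largest fall. The split of their ratio between genotypes follows from this and is no separate result. The ratio of Pias1 to Pias3 ran from 1.46 to 1.57 over the 4 libraries, with overlapping groups.

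The genes whose pattern over the 4 libraries was most like that of Socs3 were found by the root mean square difference of log2(FPKM + 1) values centred on each gene's mean. In order of likeness they were Egr4 (0.032), Irf4 (0.037), Il10 (0.040), Emp1 (0.044) and Ctla2b (0.048). Irf4, a transcription factor of effector Treg cells, was at 18.0 and 16.7 FPKM in CTRL libraries 1 and 2 and at 35.7 and 28.03 FPKM in KO libraries 1 and 2. Il10, the suppressive cytokine, was at 25.2 and 23.4 FPKM in CTRL libraries 1 and 2 and at 48.6 and 40.6 FPKM in KO libraries 1 and 2. Their higher level in KO, and in KO 1 over KO 2, follows from the choice of genes by likeness to Socs3 and is no separate result. Egr4, a zinc-finger factor induced by activation, was close to the filter, with 0.894 to 0.973 FPKM for CTRL and 2.15 to 2.66 FPKM for KO. It passed the filter of 1 FPKM through the KO libraries only. Ctla2b has a close relative, Ctla2a, with which reads could be split. With only 4 libraries, likeness of pattern is a description and was given no test.

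The proteins that SOCS and PIAS act with were counted from lists of their known parts. Of the 10 genes of the SOCS-box ubiquitin ligase, which SOCS proteins recruit to degrade their targets, 1 rose, none fell and 9 did not pass. Over all genes tested 5.1% passed as higher and 4.65% as lower, together 9.75%, so 1 of 10 lay near the background share. The gene that rose was Elob, encoding elongin B, at 199.6 and 193.2 FPKM in CTRL libraries 1 and 2 and at 314.4 and 340.6 FPKM in KO libraries 1 and 2 (log2 fold change 0.73, standard error 0.063, limma adjusted p = 0.0299). Elob overlaps Srrm2 on the opposite strand, so its reads could include those of another gene. The median of this list was -0.020. None of the 12 genes of the SUMO pathway, which PIAS ligases use, passed at an adjusted p under 0.05 by limma, and at an unadjusted p under 0.05 there were 4 lower and none higher, against 18.4% lower and 16.3% higher over all genes tested. Sumo2, a SUMO protein that is among its most abundant genes, had a log2 fold change of 0.0089 (limma adjusted p = 0.936), and the median was 0.012.

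Receptors upstream of the SOCS genes moved in both directions. Of 15 receptor genes, Il10ra rose and Il6st and Il7r fell, and 12 did not pass, with a median of 0.023. Over all genes tested, 5.1% were higher and 4.65% lower by the same threshold. Il6st encodes gp130, the chain that SOCS3 binds, and was at 42.0 and 48.0 FPKM in CTRL libraries 1 and 2 and at 31.2 and 34.0 FPKM in KO libraries 1 and 2 (log2 fold change -0.45, standard error 0.088, limma adjusted p = 0.0441). Il10ra, which signals through STAT3 without gp130, was at 31.7 and 33.2 FPKM in CTRL libraries 1 and 2 and at 40.7 and 41.7 FPKM in KO libraries 1 and 2 (log2 fold change 0.33, limma adjusted p = 0.0399). Il7r, the IL-7 receptor chain, was at 67.1 and 61.6 FPKM in CTRL libraries 1 and 2 and at 50.7 and 49.99 FPKM in KO libraries 1 and 2 (log2 fold change -0.35, limma adjusted p = 0.0421). In these 3 genes the groups did not overlap, as in 64.5% of all genes tested. The IL-2 receptor chains that induce Cish did not pass, with log2 fold changes of -0.35 for Il2ra (limma adjusted p = 0.138), 0.18 for Il2rb (0.203) and 0.086 for Il2rg (0.365).

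None of the 11 JAK kinases and STAT factors passed at an adjusted p under 0.05 by limma, and the median was 0.046. At an unadjusted p under 0.05, 2 were higher and 1 lower, against 34.7% of all genes tested in either direction. STAT5 is encoded by a pair of neighbouring genes, and their values lay on opposite sides of 0. Stat5a was at 30.4 and 32.98 FPKM in CTRL libraries 1 and 2 and at 39.2 and 36.0 FPKM in KO libraries 1 and 2 (log2 fold change 0.24, limma adjusted p = 0.0952). Stat5b was at 54.9 and 58.8 FPKM in CTRL libraries 1 and 2 and at 46.9 and 48.8 FPKM in KO libraries 1 and 2 (log2 fold change -0.24, limma adjusted p = 0.067). In both the groups did not overlap, as in 64.5% of all genes tested (KO above in 29% and below in 35.5%). Stat5a overlaps Stat3 on the opposite strand. Jak1, a kinase of many cytokine receptors and among the most abundant of the list, had a log2 fold change of -0.12 (limma adjusted p = 0.162).

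The other inhibitors of cytokine signals, which include tyrosine phosphatases, CBL ligases and Sprouty proteins, were tested for 15 of 16 genes. Of these, 1 fell, 14 did not pass, and the median was -0.029. Spry1, an inhibitor of receptor tyrosine kinase signals, was at 16.9 and 18.8 FPKM in CTRL libraries 1 and 2 and at 12.7 and 12.6 FPKM in KO libraries 1 and 2 (log2 fold change -0.47, limma adjusted p = 0.0382). Genes that respond to STAT5 in T cells divided, with 3 of 16 higher, 2 lower and 11 not passing (median 0.024). Among them Gzmb, a cytotoxic protease, had a log2 fold change of 1.34, Lif, an IL-6 family cytokine, 0.67, the survival gene Bcl2 -0.77 and Myc -0.54. These counts may be read against the 9.75% of all genes tested that passed.

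**Figure D4:**
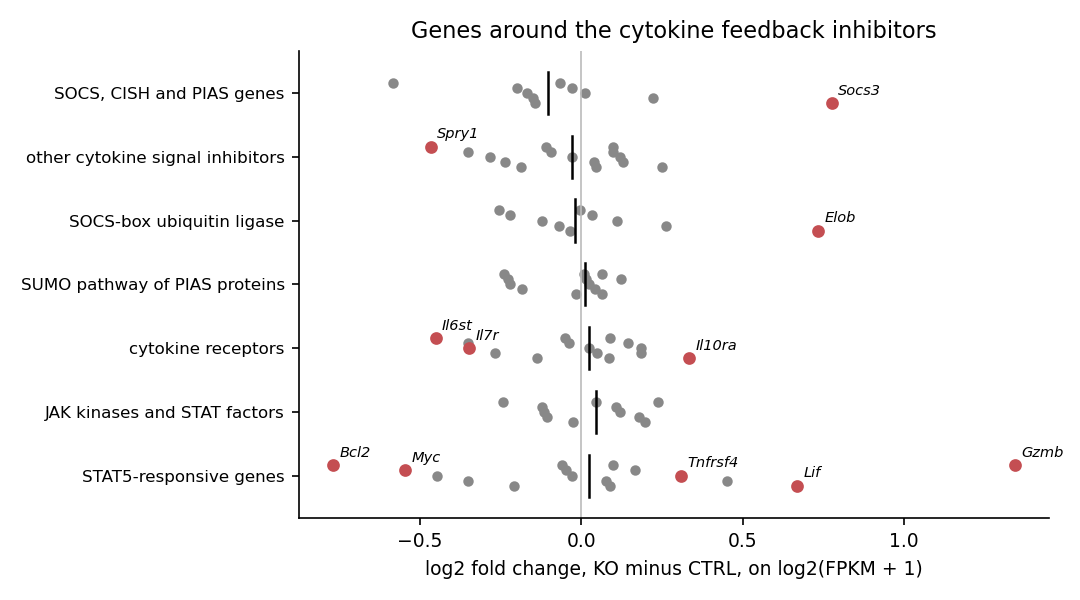
Log2 fold change (KO minus CTRL, log2(FPKM + 1) scale) of each gene in the family and in 6 lists around it, 1 point per gene, with genes past the threshold in red and named and the list median as a bar. Socs3 (0.78) and Elob (0.73) lie to the right of their lists, and the medians run from -0.10 to 0.046.

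**Figure D5:**
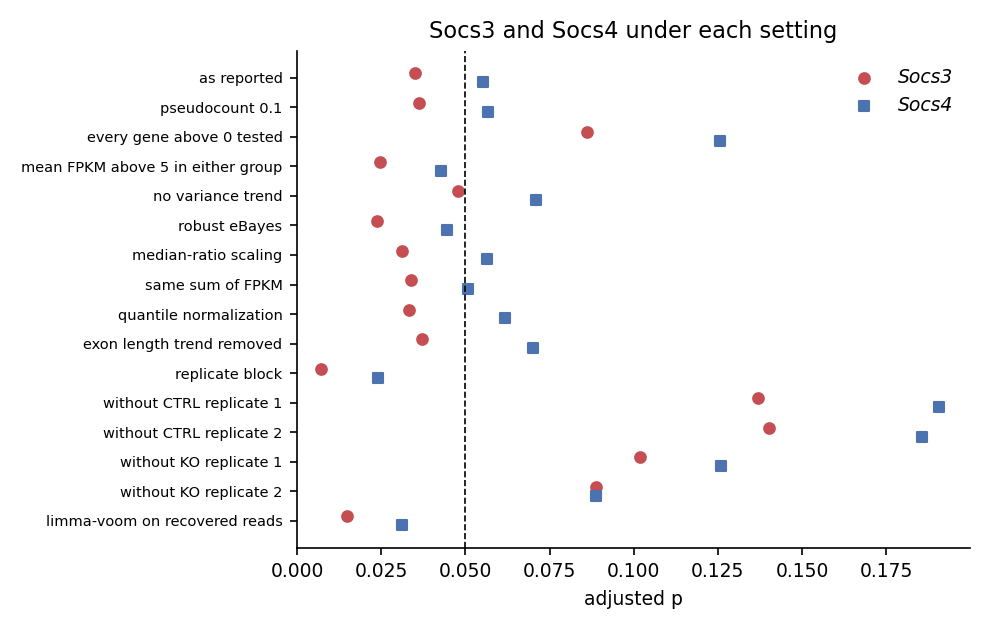
Adjusted p of Socs3 (red circles) and Socs4 (blue squares) as reported and under each alternative setting, with the threshold of 0.05 as a dashed line. Socs3 stays left of the line in 10 of the 11 settings that use all libraries, Socs4 in 4 of 11, and neither does when 1 library is left out.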

How the data were processed

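Polyadenylated RNA of sorted Treg cells was sequenced as read pairs. The submitters' processing notes name the build mm10 (GRCm38), FastQC, the aligner HISAT2 2.2.1, the counter featureCounts 2.0.1 and edgeR 3.34.0. The deposited values are FPKM made by the authors, and the gene lengths, annotation version and use of strand behind them are not given in the sources used here. Columns of the table headed WT 1 and WT 2 were taken for CTRL 1 and CTRL 2.

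KO and CTRL were compared by limma 3.58.1 (R 4.3.3; lmFit, eBayes with intensity trend) on log2(FPKM + 1) in place of edgeR, because the values are not counts. The pseudocount understates changes of weakly expressed genes. Genes with at least 1 FPKM in at least 2 libraries were tested, two-sided, with Benjamini-Hochberg adjustment over all of them and a threshold of 0.05. An exact permutation test of 2 against 2 libraries cannot go below p = 0.333 and was not used. The fit was tested on simulated data, in which each changed gene was given a larger log2 change than that fitted for any member. Spread beyond counting error was set alike for every gene. Nearly all genes made to change were called, but smaller changes, like those of most members, were not simulated. The share of false calls exceeded the nominal level of the adjusted p in every simulation. Whole reads came from the ratios of FPKM values within 0.001, for 19887 of 19888 genes above 0, and are lower bounds. Positions are from GENCODE M21, sequences from RefSeq. Other work used Python 3.11.15.

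The members and lists were chosen with earlier results of these data known. Besides the members and Setd2, the genes named were up to 4 per list with the largest change past the threshold, or else the 2 most abundant, with the IL-2 receptor chains, Stat5a and Stat5b, and the 5 genes nearest in pattern to the member with the largest change. Some genes that this rule names are not reported here. Nothing says that libraries share mice. Alternatives changed the pseudocount, the filter, the variance model, the scaling and the length trend, left out each library or added the replicate number.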

Additional observations from a re-analysis of the deposited data

How the results depend on the processing

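The count of members past the threshold rests on few libraries. By limma, 0 members were higher when every gene above 0 was tested (Socs3 and Socs4 had an unadjusted p under 0.05) and when any library was left out (range 0 to 0), where fewer samples remain and the lone library of a group is assumed to vary like the others. The members lower in KO numbered 0 as reported and 1, Socs4, with a mean FPKM above 5, with robust eBayes, with the replicate number as a block and with limma-voom on recovered reads, an alternative chosen after seeing the data. Genome-wide, testing every gene above 0 gave 0 higher and 0 lower genes (2212 and 2251 at an unadjusted p under 0.05) and leaving out a library 0 to 1 higher and 0 to 1 lower (2681 to 3044 in all, unadjusted). Without the variance trend 315 were higher, limma-voom gave 891 higher and 1001 lower, and removal of the exon length trend 321 lower. The causes were not tested.

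The labels pair the libraries by number only. Deviations of same-numbered libraries from their group means correlated across genes at a Pearson value of 0.342 and a Spearman value of 0.055. With the replicate block 968 genes were higher and 805 lower, the adjusted p of Socs3 was 0.0070 and that of Socs4 0.0240, and no other member passed.

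Socs3 kept a log2 fold change of 0.63 to 0.92 without 1 library and Socs4 of -0.76 to -0.40. Signs reversed for members near 0. Pias1 became 0.032 with the length trend removed and Pias3 -0.00091 with each library scaled to the same sum. Without 1 library Socs1 ran from -0.21 to 0.083, Pias1 from -0.073 to 0.017 and Pias3 from -0.059 to 0.084. All other members kept their sign under every setting run.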
